A study of Rattus norvegicus with 12 samples.

Results

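The genes described here are 10 genes of the antioxidant response that the transcription factor NRF2 controls: Nfe2l2, Txn1, Txnrd1, Srxn1, Prdx1, Gclc, Gclm, Gsr, Nqo1 and Hmox1. They were taken by name, and their members are the probe sets (groups of array probes for 1 transcript) that the platform annotation assigns to 1 of these symbols alone. This gave 13 of the 31099 probe sets on the array, for 9 of the 10 genes. The only probe set of Prdx1, a peroxiredoxin, is also assigned to Prdx1l1, so no value is given for it. Of the 13 probe sets, 12 passed a filter on dim signals (a mean signal of at least 19.67, the median of all probe sets), and these 12 cover all 9 genes.

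Liver RNA of 12 rats was measured, 1 array per animal. Of the Sprague Dawley rats 3 were germ-free (animals 1, 3 and 4) and 3 were conventional (6, 7 and 8). Of the Han Wistar rats 3 drank water with streptomycin and penicillin freely over 8 days until necropsy (13, 14 and 15), and 3 were untreated controls (1, 2 and 3). The labels state 4 mg/ml of streptomycin and 2 mg/ml of penicillin and do not settle whether this is the 10X stock or the diluted water. No genetic modification, age, sex or diet is labelled for any group. Strain and experiment go together, so each treated group was set against the control of its own strain. Values are linear MAS5 signals, and fold changes are differences of log2(signal + 16), which understate the change of dim genes. Adjusted p-values are from limma with Benjamini-Hochberg adjustment over 9300 genes, each represented by its brightest probe set, and a gene passed when this value was under 0.05. Nothing in the labels says that the animals of a group came from separate cages or litters, so the p-values do not reach beyond these animals. They rest on 1 spread per gene, taken within groups over all 12 animals and drawn by limma towards that of other genes.

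NRF2, the product of Nfe2l2, is a leucine zipper factor that its inhibitor KEAP1 holds in the cytoplasm and marks for degradation. Oxidants and electrophiles modify KEAP1, NRF2 then accumulates, pairs with small MAF proteins and binds antioxidant response elements near its target genes. In liver these targets make and reduce glutathione, keep thioredoxin and peroxiredoxins reduced, and detoxify quinones and haem. NRF2 is regulated largely through protein stability, so its messenger level is not a measure of its activity.

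In germ-free livers 2 of the 9 genes tested fell, both of them reductases of the thioredoxin and peroxiredoxin system. They were Srxn1, which repairs over-oxidised peroxiredoxins, and Txnrd1, the cytosolic thioredoxin reductase. No member rose, and 7 did not pass. Over all genes 13.2% passed in this comparison, 6.44% higher and 6.74% lower in germ-free livers, and nothing particular to the 9 genes is read from the count of 2. The median log2 fold change of the 9 genes was -0.34, beside 0.02 over all genes. At an unadjusted p under 0.05 stood 5 of the 9 genes, beside 28.1% of all genes. Of these, Srxn1, Txnrd1, Gsr and Gclc were lower in germ-free livers and Nfe2l2 was higher. In antibiotic-treated livers 0 of the 9 passed limma's test, beside 0.0215% of all genes, and 1 of the 9 had an unadjusted p under 0.05, beside 10.4% of all genes. The median there was -0.04, beside 0.00 over all genes.

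Promoters are shown for Srxn1 and Txnrd1, the genes that passed, and for Gclm, which did not. Promoter sequences were taken from RefSeq (build GRCr8), matched by symbol for 8 of the 10 genes, with none for Gsr and Hmox1 and a pair of start sites for Txnrd1. Each line gives the 250 bases before an annotated start, 5′ to 3′ on the gene's strand, and the capitals mark matches to either of the motifs below on either strand. The regions are chr3:161064562-161064811 (plus strand) for Srxn1, chr7:22755905-22756154 (minus strand) for the downstream start of Txnrd1, and chr2:213031885-213032134 (plus strand) for Gclm.
Srxn1: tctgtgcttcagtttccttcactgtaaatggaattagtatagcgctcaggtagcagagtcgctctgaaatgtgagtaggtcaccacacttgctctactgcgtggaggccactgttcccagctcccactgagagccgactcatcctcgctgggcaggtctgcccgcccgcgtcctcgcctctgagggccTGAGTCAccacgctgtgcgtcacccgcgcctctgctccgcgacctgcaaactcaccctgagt
Txnrd1: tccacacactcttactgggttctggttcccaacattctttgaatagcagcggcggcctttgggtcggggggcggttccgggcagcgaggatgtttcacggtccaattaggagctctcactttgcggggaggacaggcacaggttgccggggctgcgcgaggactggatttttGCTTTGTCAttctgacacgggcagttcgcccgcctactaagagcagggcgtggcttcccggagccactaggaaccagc
Gclm: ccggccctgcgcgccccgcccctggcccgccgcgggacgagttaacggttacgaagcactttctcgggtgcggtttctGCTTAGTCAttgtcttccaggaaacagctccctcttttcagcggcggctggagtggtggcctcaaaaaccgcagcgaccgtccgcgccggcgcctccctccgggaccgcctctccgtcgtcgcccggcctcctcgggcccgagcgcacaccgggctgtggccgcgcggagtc
The motif TGACNNNGC, the core of the antioxidant response element, was found in 3 of the 9 windows of these genes, in Gclm, Prdx1 and the downstream start of Txnrd1, and in 10.1% of all 33469 promoter windows of that length. The window of the upstream start of Txnrd1 held neither motif. In Gclm it began 172 and in Txnrd1 78 bases upstream of the start, both on the opposite strand. The motif TGAGTCA, the binding sequence of AP-1 factors, which on its other strand can overlap the first bases of TGACNNNGC, was found in Srxn1, 62 bases upstream, and in Prdx1, which is 2 of the 9 windows, beside 4.05% of all windows. A match is a description of these letters, not a binding site, and elements further from the start were not searched.

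Nfe2l2 itself had signals of 702.9, 655.4 and 629.7 in germ-free livers, against 549.9, 530.3 and 473.4 in conventional livers. All germ-free values lay above all conventional ones, but the log2 difference of 0.35 ± 0.14 (SE) did not pass (adjusted p = 0.122 by limma, 3 against 3 animals). This SE, like those below unless another fit is named, is from the fit of all 12 arrays. It therefore includes the spread of the Han Wistar groups. Antibiotic-treated livers had 1326.9, 1098.9 and 856.9, and untreated livers 978, 1253.8 and 1125.3. Those groups overlapped throughout, with a log2 difference of -0.05 (95% interval -0.35 to 0.26; adjusted p = 0.957).

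Srxn1 encodes sulfiredoxin, which returns over-oxidised peroxiredoxin to its active form. It had signals of 97.3, 57.8 and 51.5 in germ-free livers, against 387.3, 272.1 and 191.7 in conventional livers. The groups did not overlap, and the log2 change was -1.81 ± 0.24 (SE; adjusted p = 0.000283 by limma). Leaving out any of the 12 animals kept the call, with log2 changes of -2.04 to -1.57 and adjusted p-values of 0.000180 to 0.00237, while over all alternatives the adjusted p ran from 4.26e-05 to 0.171. The upper end came from the second probe set of the gene, which had signals of 41.9, 28.8 and 25.8 in germ-free livers, against 129.3, 41.4 and 33.8 in conventional livers. There the groups overlapped, conventional animal 6 stood far above the other two, and the log2 difference of -0.65 ± 0.29 did not pass (adjusted p = 0.171 by limma over every probe set). The third probe set of Srxn1 had signals of 1.2 to 8.6 in the Sprague Dawley livers and 0.9 to 6.8 in the Han Wistar livers and lay under the filter. The platform annotation used here does not say which part of the transcript each probe set reads.

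In Han Wistar livers Srxn1 had signals of 88.6, 150.1 and 117.9 after antibiotics, against 112.8, 109.6 and 106.1 in untreated animals. The treated values lay on both sides of the untreated ones, which were close together (log2 0.08, 95% interval -0.43 to 0.59; adjusted p = 0.957 by limma). Its second probe set had 64.6, 63.6 and 49.4 after antibiotics, against 64.7, 58.6 and 62.1 in untreated livers, and those groups overlapped as well (log2 -0.05 ± 0.29). The change in germ-free livers differed from that in antibiotic-treated livers by -1.88 ± 0.34 on the log2 scale (adjusted p = 0.00509 by limma). That difference did not pass when the log2 values of the 2 bright probe sets were averaged (-1.24, adjusted p = 0.0570; range over the alternatives 0.000872 to 0.470). Srxn1 was the only 1 of the 9 genes to pass this test, against 5.94% of all genes.

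Txnrd1 encodes the selenoprotein that reduces thioredoxin with NADPH. Its signals were 499, 329.2 and 324.3 in germ-free livers, against 801.4, 570.2 and 650.5 in conventional livers. Germ-free animal 1 came nearest to the conventional animals, and the groups did not overlap. The log2 change was -0.80 ± 0.16 (SE; adjusted p = 0.00534 by limma), and without each animal in turn it ran from -0.996 to -0.67 (adjusted p 0.000745 to 0.0316). The second probe set had signals of 254.6, 273 and 235.3 in germ-free livers, against 374.1, 206.9 and 314.2 in conventional livers. Those groups overlapped, since conventional animal 7 was the lowest of all 6, and the log2 difference was -0.18 ± 0.16 (adjusted p = 0.503 by limma over every probe set). With the log2 values of both probe sets averaged, Txnrd1 still passed (-0.49, adjusted p = 0.0408). After antibiotics Txnrd1 had 515.9, 402.2 and 432.2, against 498.3, 519.7 and 522.4 in untreated livers, which overlapped (log2 -0.19, 95% interval -0.54 to 0.16). The second probe set overlapped there too, with 400.7, 381 and 355 after antibiotics, against 383, 447.1 and 417.8 in untreated livers (log2 -0.13 ± 0.16). The difference between the 2 comparisons, -0.61 ± 0.23, did not pass (adjusted p = 0.139), and passed without germ-free animal 1 (adjusted p = 0.0252).

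Txn1 encodes thioredoxin, the small protein that Txnrd1 reduces. Its signals were 3620.5, 3571.9 and 3593.6 in germ-free livers, against 3395.7, 3497.1 and 3694.5 in conventional livers, with a log2 difference of 0.03 (95% interval -0.13 to 0.19; adjusted p = 0.850 by limma). They were 3177.6, 2999.3 and 3125 after antibiotics, against 3201.3, 3066 and 3065.1 in untreated livers (log2 0.00, 95% interval -0.17 to 0.16). After quantile normalization that difference was -0.23 and did not pass (adjusted p = 0.318 by limma), outside this interval.

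**Figure D1:**
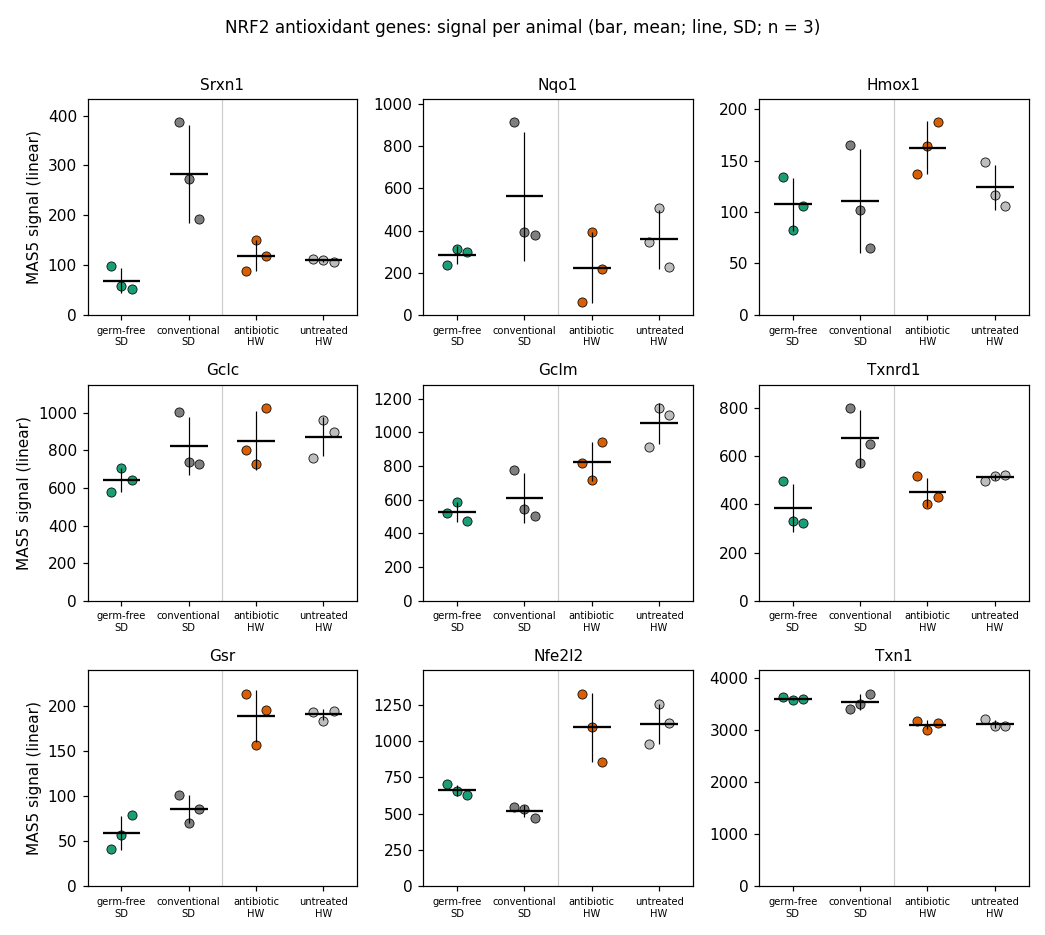
MAS5 signal (linear, y axis) of the brightest probe set of each of the 9 genes, with 1 point per animal, the mean as a bar and the SD as a line (n = 3). SD stands for Sprague Dawley and HW for Han Wistar on the x axis. Srxn1 lies at 51.5 to 97.3 in germ-free and 191.7 to 387.3 in conventional livers, and Gsr and Nfe2l2 are higher in all Han Wistar animals than in all Sprague Dawley animals.

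**Figure D2:**
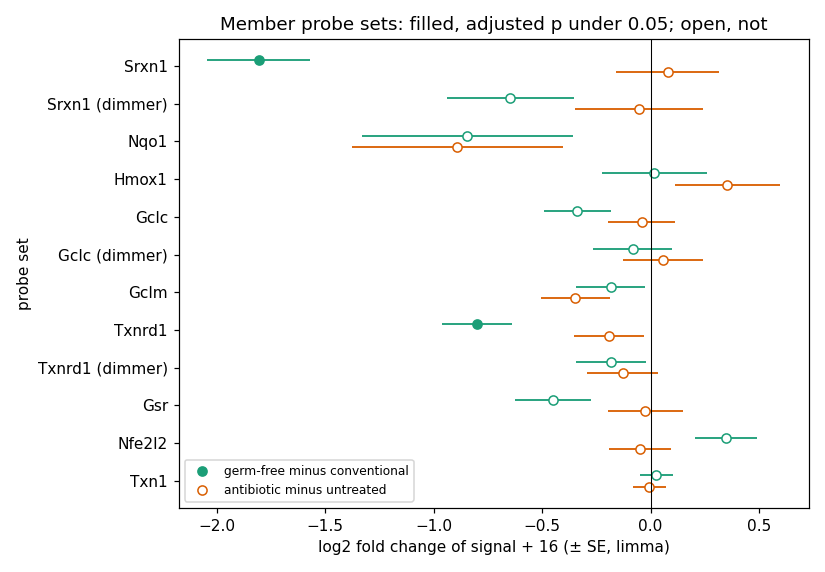
Log2 fold change (x axis, ± SE from limma fitted on every probe set past the filter) of the 12 member probe sets, germ-free minus conventional and antibiotic minus untreated. Filled points passed at an adjusted p under 0.05. The brightest probe sets of Srxn1 (-1.81) and Txnrd1 (-0.80) are the only filled ones, and the dimmer probe sets of both genes are open at -0.65 and -0.18.

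The enzymes that make and recycle glutathione did not pass in either comparison. Gclc encodes the catalytic subunit of glutamate-cysteine ligase, the first step of glutathione synthesis. It had signals of 579.4, 707.5 and 645.2 in germ-free livers, against 1003.8, 738.7 and 730.5 in conventional livers. The groups did not overlap, although by a small margin, and the log2 difference was -0.34 ± 0.15 (adjusted p = 0.160 by limma). Its second probe set, at 263.6 to 409 in germ-free and 309.4 to 473.9 in conventional livers, overlapped (log2 -0.08 ± 0.18). After antibiotics the brighter probe set had 800.7, 730.1 and 1027.5, against 757.5, 961.2 and 899.9 in untreated livers (log2 -0.04, 95% interval -0.37 to 0.28).

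Gclm encodes the modifier subunit, which raises the activity of the ligase. Its signals of 518.6, 588.2 and 474.6 in germ-free livers overlapped with 777.7, 545.6 and 505.6 in conventional livers with a log2 difference of -0.18 ± 0.16 that did not pass (adjusted p = 0.478 by limma). It was the member with an unadjusted p under 0.05 in the antibiotic comparison, with 819.7, 714.3 and 945.4 in treated livers, against 914.1, 1146.3 and 1100.8 in untreated livers. Only treated animal 15 reached into the untreated range, and the log2 difference of -0.35 ± 0.16 did not pass (adjusted p = 0.468).

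Gsr encodes glutathione reductase, which regenerates reduced glutathione with NADPH. It had 41.9, 57.3 and 79.7 in germ-free livers, against 101.5, 70.5 and 85.9 in conventional livers. Germ-free animal 4 lay inside the conventional range, and the log2 difference was -0.45 ± 0.17 (adjusted p = 0.103 by limma). Without that animal it was -0.64 and passed (adjusted p = 0.0286; range over the alternatives 0.0286 to 0.310). After antibiotics it had 214.3, 157.7 and 196, against 194.4, 184.4 and 195.2 in untreated livers (log2 -0.02, 95% interval -0.40 to 0.35).

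**Figure D3:**
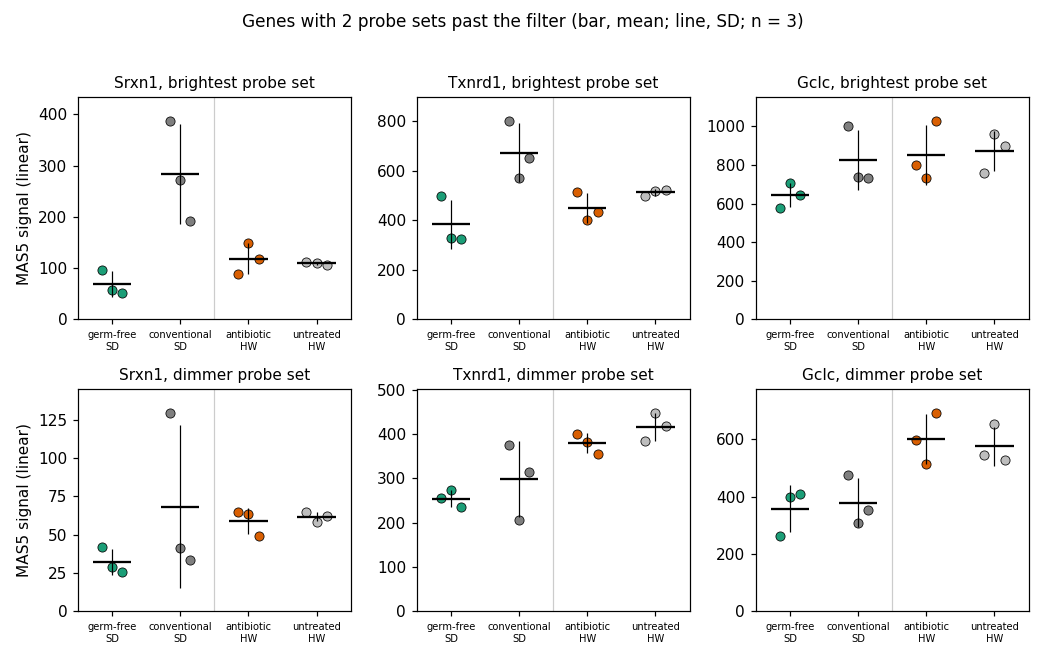
MAS5 signal (linear, y axis) per animal for the 3 genes with 2 probe sets past the filter, the brightest above and the dimmer below, with mean and SD (n = 3). The groups of Srxn1, Txnrd1 and Gclc that are apart in germ-free and conventional livers in the upper row overlap in the lower row.

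Nqo1 and Hmox1, which are often used as readouts of NRF2, varied widely between animals. Nqo1 encodes a quinone reductase that adds 2 electrons at once and so avoids semiquinone radicals. It had 234.6, 314.1 and 299.6 in germ-free livers, against 915.7, 394.7 and 379.4 in conventional livers. The groups did not overlap, but conventional animal 6 stood far above the rest. The log2 difference of -0.84 ± 0.49 did not pass (adjusted p = 0.280 by limma). Its SE is pooled over all 12 arrays, and with only the 6 Sprague Dawley arrays fitted it was 0.29 (adjusted p = 0.0992 by limma). Without antibiotic-treated animal 13 the SE was 0.34 (adjusted p = 0.118). Without conventional animal 6 the log2 difference was -0.44 ± 0.51 (adjusted p = 0.619). In antibiotic-treated livers Nqo1 had 59, 394.3 and 216.1, against 345.9, 506 and 224.8 in untreated livers. Treated animal 13 was the lowest of all 12, and the log2 difference was -0.89 ± 0.49 (adjusted p = 0.566), and -0.21 without animal 13.

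Hmox1 encodes the inducible haem oxygenase, which macrophages also express when they take up red cells. Its signals were 134, 82.6 and 106.4 in germ-free livers, against 165.7, 102.2 and 65.3 in conventional livers, and the conventional range enclosed the germ-free one (log2 0.02, 95% interval -0.50 to 0.54; adjusted p = 0.970 by limma). They were 136.7, 164.1 and 187.8 after antibiotics, against 148.7, 117 and 106.4 in untreated livers (log2 0.35 ± 0.24, adjusted p = 0.660). In these bulk samples fewer cells of a type and less RNA per cell cannot be told apart. The summed signal of 9 macrophage markers tested was 1975.7 to 2687 in germ-free and 2636.8 to 3726.9 in conventional livers, and 1 of the 9, Clec4f, fell. Bright markers weigh most in such a sum, and the log2 differences of the 9 ran from -0.79 to 0.21 (median -0.10). The sum was 2371.7 to 3592 after antibiotics and 1688 to 2590.7 in untreated livers, with 0 of the 9 passing. The log2 differences of the 9 after antibiotics ran from 0.28 to 0.68 (median 0.51). The groups did not overlap there for 3 of the 9, beside 18.3% of all genes. Of 6 endothelial markers tested 5 rose in germ-free livers (sums of 1278.7 to 1803.4 in germ-free and 697.2 to 879.5 in conventional livers), and 0 of the 6 passed after antibiotics (1236.2 to 1704.9 in treated and 965.8 to 1853.1 in untreated livers). Of 6 hepatocyte markers 0 passed in either comparison. Their sums were 41889 to 46323.1 in germ-free and 39006.4 to 42343.6 in conventional livers. They were 32181.1 to 39494.6 after antibiotics and 24462.7 to 30028.3 in untreated livers. The log2 differences of the 6 after antibiotics ran from 0.14 to 0.47 (median 0.39). The groups did not overlap there for 5 of the 6, beside 18.3% of all genes. Of the markers of other cells, 0 of 8 of stellate cells, 0 of 3 of bile ducts and 0 of 1 of lymphocytes passed, and 1 of 3 of red cells, Slc4a1, fell in germ-free livers. The part of these markers in the members' values was not tested.

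The germ-free and conventional values did not overlap for 5 of the 9 genes, 4 lower in germ-free livers (Srxn1, Nqo1, Gclc and Txnrd1) and 1 higher (Nfe2l2). Over all genes 29.9% did not overlap, 14.5% lower and 15.4% higher. In the antibiotic comparison 0 of the 9 were apart, beside 18.3% of all genes. Among conventional livers animal 6 had the highest signal for 8 of the 9 genes, all but Txn1, beside 40.8% of all genes. Without that animal Srxn1 (-1.57, adjusted p = 0.00120 by limma) and Txnrd1 (-0.67, adjusted p = 0.0220) still passed. The signals of Gsr (41.9 to 101.5 in the 6 Sprague Dawley and 157.7 to 214.3 in the 6 Han Wistar livers), Nfe2l2 (473.4 to 702.9 and 856.9 to 1326.9) and Txn1 (3395.7 to 3694.5 and 2999.3 to 3201.3) did not overlap between the strains. That is 3 of 9 genes, beside 11.6% of all genes. The ratio of 3' to 5' beta-actin signal, a measure of RNA integrity, did not overlap between the strains either. It was 3.62 to 6.17 in Sprague Dawley and 2.47 to 2.87 in Han Wistar livers, so strain, experiment and RNA integrity cannot be told apart there.

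The list of NRF2 regulators had 13 tested genes, and in germ-free livers 1 of them fell, 12 did not pass and the median log2 difference was 0.03, beside 6.74% of all genes that fell. Keap1, the inhibitor, had a log2 difference of -0.11 ± 0.12 in germ-free livers (0.10 from its second probe set) and of -0.08 after antibiotics. Sqstm1, the autophagy receptor that binds KEAP1 and is itself an NRF2 target, had 0.03 ± 0.15 and 0.11. Bach1, a repressor that competes for the same elements, lay under the filter. The regulator that fell, Nfe2l1, a relative of NRF2 that controls proteasome genes, had signals of 67, 46.8 and 46.5 in germ-free livers, against 98.3, 77.4 and 89.3 in conventional livers. Its groups did not overlap, and the log2 change was -0.60 ± 0.18 (adjusted p = 0.0422 by limma), with 0.10 and -0.02 from its other probe sets. It lost its call without any 1 of 7 of the 12 animals, with adjusted p-values of up to 0.148. In antibiotic-treated livers 0 of the 13 passed, beside 0.0215% of all genes, and the groups did not overlap for 2 of the 13, beside 18.3%.

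In a list of other genes that NRF2 is known to activate, more fell than rose in germ-free livers. Among the 24 tested, 13 passed as lower, 2 as higher and 9 missed the threshold (median log2 difference -0.71, beside 0.02 over all genes, of which 6.74% fell). They were lower than in conventional livers without overlap for 16 of the 24, beside 14.5% of all genes. The count of genes that passed ran from 10 to 15 when each animal was left out and was 10 with the beta-actin ratio, a measure of RNA integrity, as a covariate. This list was chosen with results of these data known, so its count is a description. It leaves out Sqstm1, the NRF2 target given above among the regulators (log2 0.03 in germ-free livers). Whether NRF2 had a part in these changes was not tested. In antibiotic-treated livers 0 of the 24 passed (median -0.09), beside 0.0215% of all genes. The groups did not overlap there for 2 of the 24, beside 18.3% of all genes.

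Akr7a3, the rat aflatoxin aldehyde reductase, had signals of 160.7, 157.7 and 81.7 in germ-free livers, against 1123, 598.4 and 696.6 in conventional livers. Every conventional value was more than 3 times every germ-free one, and the log2 change was -2.46 ± 0.26 (adjusted p = 5.7e-05 by limma). Me1, the malic enzyme that makes NADPH and is also a lipogenic gene, had 89.2, 129.4 and 96.6 in germ-free livers, against 662.7, 436.5 and 461.8 in conventional livers (log2 -2.14 ± 0.24, and -2.57 from its second probe set). Pgd, an NADPH-producing enzyme of the pentose phosphate pathway, had 129.3, 156 and 133.4, against 241.6, 284.9 and 279.2 (log2 -0.87 ± 0.12). Cbr1, a carbonyl reductase, had 63.1, 58.6 and 52.2, against 179.8, 152.9 and 143.1 (log2 -1.24 ± 0.19). In germ-free livers each of these 4 genes kept its call in every alternative that gave a value for it.

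The same 4 genes showed no such separation after antibiotics. They were named for their small p-values in the germ-free comparison, which favours a larger change there. Akr7a3 had 520.4, 379.2 and 458.1 in treated livers, against 496.4, 751.4 and 488.8 in untreated livers (log2 -0.33 ± 0.26). Me1 had 124.2, 90.3 and 215.1 in treated livers, against 234.3, 180.2 and 180 in untreated livers (log2 -0.49 ± 0.24). Its second probe set gave -0.59 ± 0.23, which did not pass (adjusted p = 0.405 by limma over every probe set). By the brightest probe sets the groups of Akr7a3 and Me1 overlapped, as did those of Pgd (log2 -0.14 ± 0.12) and Cbr1 (log2 0.25 ± 0.19).

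The other genes that fell, named after their values were seen, were the pentose phosphate enzymes Taldo1 (-0.61) and Tkt (-0.70), the biliverdin reductase Blvrb (-0.97), the exporter Abcc4 (-0.82), the epoxide hydrolase Ephx1 (-0.78), the haem synthesis enzyme Fech (-0.54), Ugdh (-0.39), which makes UDP-glucuronate, Pir (-0.72) and Tsku (-1.15). The 2 that rose were Aox1, aldehyde oxidase (0.45), and Akr1b8, an aldose reductase relative (0.77), whose mean of 10.8 in conventional livers lay under the filter value.

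**Figure D4:**
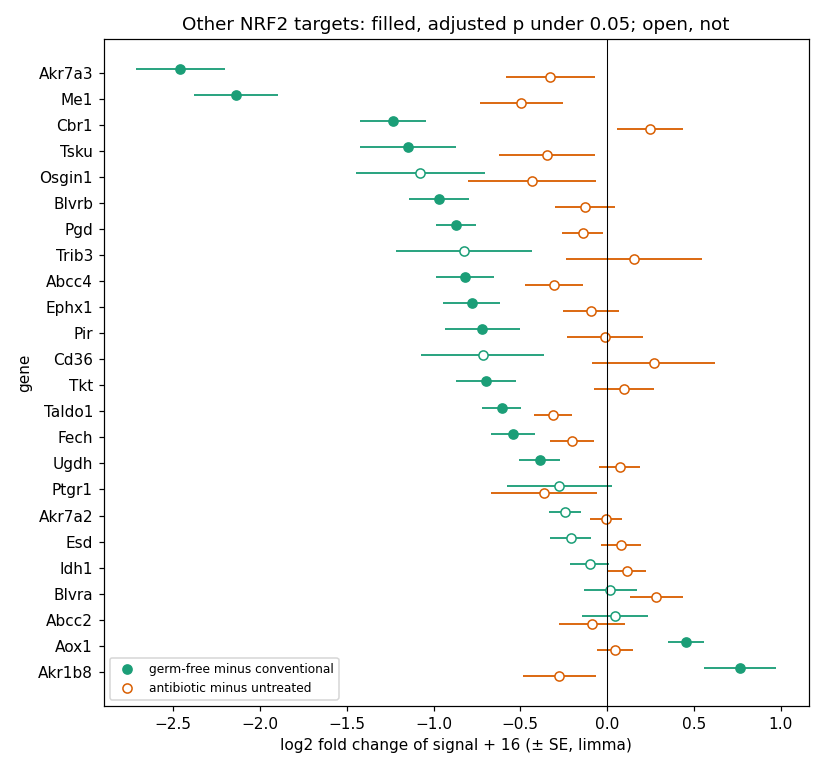
Log2 fold change (x axis, ± SE, limma) of the 24 other NRF2 targets tested, germ-free minus conventional and antibiotic minus untreated, ordered by the first. Filled points passed at an adjusted p under 0.05. In the germ-free comparison 13 genes are filled below 0 and 2 above, and in the antibiotic comparison all are open, from -0.49 to 0.28.

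Among 31 other genes of glutathione and peroxide handling 4 rose, 3 fell and 24 did not pass in germ-free livers (median 0.03), beside 6.44% of all genes higher and 6.74% lower. Sesn2, a stress-induced sestrin that restrains the growth regulator mTORC1, had 388.1, 366 and 465.9 in germ-free livers, against 84.6, 107.7 and 121.6 in conventional livers. All germ-free values were more than 3 times the highest conventional one, and the log2 change was 1.81 ± 0.14 (adjusted p = 5.79e-06 by limma). After antibiotics Sesn2 had 137.7, 112.4 and 154.3, against 209, 219 and 205.1 in untreated livers. Those groups did not overlap either, in the other direction, and that log2 difference of -0.60 ± 0.14 did not pass (adjusted p = 0.173).

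Oplah, which returns 5-oxoproline to glutamate, changed by -0.76 ± 0.15 in germ-free livers, Glrx, a glutaredoxin, by -0.59 ± 0.13 and Sod3, the extracellular superoxide dismutase, by 0.56 ± 0.13. Glrx lost its call without germ-free animal 3 (adjusted p = 0.0553 by limma), and Sod3 without germ-free animal 3 (0.0663) or conventional animal 8 (0.0516). With the actin ratio as a covariate all 3 lost their calls, Oplah at -0.64 (adjusted p = 0.0640 by limma), Glrx at -0.37 (0.129) and Sod3 at 0.56 (0.0713). The count of genes that passed in this list was 2 without germ-free animal 3, 4 without germ-free animal 4 and 4 without conventional animal 6, and 1, Sesn2, with the actin ratio as a covariate. In antibiotic-treated livers 0 of the 31 passed, beside 0.0215% of all genes. The groups did not overlap there for 9 of the 31, 4 of them lower after antibiotics, beside 18.3% of all genes.

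The 3 tested genes with the profile nearest to that of Srxn1, by the root mean square difference of log2 values over 12 animals after each strain's mean was subtracted, were Pnpla2 (0.22), Colq (0.23) and Crat (0.24). Pnpla2 is the main triglyceride lipase of lipid droplets and Crat is carnitine acetyltransferase. Their log2 changes in germ-free livers were -1.50, -1.51 and -1.84. Nearest to Txnrd1 were Sptan1 (0.14), Trip6 (0.14) and Adamtsl4 (0.14), with changes of -0.89, -0.82 and -0.66. Differences between the groups of a strain remain in these profiles, so like changes in germ-free livers follow from the choice of nearest genes.

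Arrays of 1 group correlated at 0.977 to 0.987 across genes, which are not independent, and no 2 arrays held identical values. The actin ratio, the 3' over the 5' signal of the beta-actin control probe sets, averaged 4.39 ± 0.762 in the germ-free group and 5.37 ± 0.839 in the conventional group (SD, n = 3 each), and a two-sided exact permutation test gave p = 0.2. It was 2.73 ± 0.131 after antibiotics and 2.55 ± 0.123 in untreated livers (p = 0.2 by the same exact test, which cannot go below 0.1). When this ratio was a covariate, 623 genes passed in the germ-free comparison in place of 1226, and Srxn1 (-1.81, adjusted p = 0.00410 by limma) and Txnrd1 (-0.79, adjusted p = 0.0424) were among them. Without germ-free animal 3 the count over all genes was 654. The number of arrays limits the precision: the standard error of a gene's log2 difference had a median of 0.144.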

How the data were processed

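Liver RNA of 12 rats was measured on 1-colour Affymetrix arrays, and the authors deposited a table of MAS5 signal intensities, linear and not logged, per the submitters' processing notes and the values themselves. With 2% cut from each end, every array had a mean of 100.0 or 100.1, so the deposited intensities were used unscaled. After 57 control probe sets were set aside, 20826 of 31042 had 1 gene symbol, 436 several and 9780 none; symbols followed RefSeq GRCr8 by gene ID for 20758 and by accession for 2, while 66 stayed as annotated.

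Probe sets with a mean signal of at least 19.67 were kept (15523), and the brightest stood for each of 9300 genes. Values of log2(signal + 16) went into limma 3.58.1 under R 4.3.3 (lmFit, eBayes with an intensity trend, 1 mean per group, 12 arrays, 8 residual and 5.84 prior degrees of freedom). P-values are two-sided. Alternatives were offsets of 1 and 64, other filters, quantile normalization, separate fits, no trend, array weights, averaged probe sets per gene, probe sets taken singly, the actin ratio as a covariate and leaving out each animal. The fit was also run on simulated data in which genes varied independently, and no result here rests on that run. The members and lists were chosen with earlier results of these data known. Named genes were all members, Keap1, Bach1 and Sqstm1, up to 4 genes per list and comparison that passed, by smallest p, and the 3 nearest profiles of each member that passed; others are marked where named.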

Additional observations from a re-analysis of the deposited data

Results flagged for a closer look

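The log2 change in germ-free livers (against conventional livers) differed from that in antibiotic-treated livers (against untreated livers), by limma's test of the difference with an adjusted p under 0.05, for 6 of the members and named genes. Srxn1 differed by -1.88 ± 0.34 (SE; adjusted p = 0.00509), Akr7a3 by -2.13 ± 0.36 (0.00414), Me1 by -1.64 ± 0.34 (0.0126), Cbr1 by -1.48 ± 0.27 (0.00573) and Pgd by -0.73 ± 0.17 (0.0208). Sesn2 differed by 2.41 ± 0.20 (4.2e-05), higher in germ-free livers and, without passing, lower after antibiotics. Over all genes 5.94% passed this test. Apart from the member Srxn1, these genes were named for their small p-values in the germ-free comparison. That comparison is part of the difference, so their passing follows in part from the choice and is a description. Strain and experiment differ along with the treatments, so these cannot be told apart.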

How the results depend on the processing

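No paired analysis was possible because the compared groups share no animal numbers. Srxn1 and Txnrd1 passed in the germ-free comparison under every alternative but their dimmer probe sets (-0.65 and -0.18). The members that passed numbered 2 to 3 when each animal was left out (Gsr was the third) and 2 otherwise. For the difference between the comparisons they numbered 1 to 2, and 0 with probe sets averaged per gene. Over all genes the germ-free count was 1901 of probe sets taken singly, 623 with the actin covariate and 654 to 1236 without each animal. The antibiotic count was 1 with an offset of 1, 4 with no filter, 0 with the 75th percentile filter, 15 with array weights and 0 to 10 without each animal. The count for the difference was 869 with array weights, 276 with the actin covariate and 296 to 600 without each animal. In the germ-free comparison the glutathione and peroxide list had 11 genes passing with array weights, 1 with the actin covariate and 2 to 8 without each animal. The regulators had 0 with an offset of 64, no filter or the actin covariate, 2 as probe sets taken singly and 0 to 1 without each animal. For the difference the glutathione and peroxide list had 2 with the 75th percentile filter, 3 with array weights, 2 with the actin covariate and 1 to 2 without each animal, and the other targets had 7 with array weights. The antibiotic minus untreated actin ratio, 0.186 as deposited, was -0.205 after quantile normalization.

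Signs turned only for differences that did not pass under the alternative named. In the germ-free comparison Hmox1 (0.02) was -0.052 with quantile normalization, -0.016 with array weights, -0.019 with the actin covariate and -0.27 to 0.31 without each animal. Other probe sets gave 0.10 for Nfe2l1 (the gene had passed at -0.60), 0.10 for Keap1 and -0.045 for Sqstm1, which was -0.11 with the actin covariate and -0.079 to 0.11 without each animal. In the antibiotic comparison Gclc (-0.04) was 0.0030 with array weights, 0.0081 as the mean of its probe sets, 0.057 from its dimmer one and -0.18 to 0.062 without each animal. Gsr (-0.02) was 0.00081 with quantile normalization, 0.019 with the actin covariate and -0.11 to 0.092 without each animal. The dimmer probe set of Srxn1 gave -0.055, and other probe sets 0.071 for Keap1 and -0.12 for Sqstm1. Without each animal, Srxn1 ran from -0.084 to 0.25, Nfe2l2 from -0.20 to 0.12, Txn1 from -0.023 to 0.019, Nfe2l1 from -0.23 to 0.091, Cbr1 from -0.029 to 0.43, Glrx from -0.040 to 0.18, Sod3 from -0.013 to 0.13 and Sqstm1 from -0.036 to 0.25. For the difference between the comparisons Nqo1 (0.05) was -0.061 with an offset of 64, -0.52 with the actin covariate and -0.63 to 0.59 without each animal, and Gclm (0.16) was -0.058 with the actin covariate. The cause of these shifts was not tested.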
